A study of Mus musculus with 13 samples.

Results

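The 8 genes described here, Nppb, Sst, Nts, Il31ra, Osmr, Cysltr2, Ptafr and Jak1, are markers of pruriceptors, the sensory neurons that signal itch. They were chosen by name from 41388 genes counted in each of 13 RNA-sequencing libraries, and all 8 passed the filter on low counts that left 15406 genes to test. The libraries were made from cells sorted for green fluorescence out of dorsal root ganglia (DRG) of C57BL/6 mice aged 3 months. The labels give the genotype of every group as Tg(Ret-EGFP)SJ, and the series text describes heterozygotes with EGFP placed in the Ret locus, so that the sorted cells carry the reporter of Ret, the signalling receptor of the GDNF ligand family, and neurons that lack Ret are not sampled. These sources differ, since the labelled name is that of a transgene and the series text describes a knock-in, and which of them holds is not settled here. No group lacks the reporter. Ganglia came from spinal levels L3 to L5 (L345) or from L6 and S1 (L6S1) of females or males, which gave 3 libraries of female L345 (A, B, C), 3 of female L6S1 (A, B, C), 3 of male L345 (A, B, C) and 4 of male L6S1 (A, D, E, F). From 2 to 9 mice and 12 to 42 ganglia were pooled for a library, 61 mice over all libraries if none gave both levels, which the labels do not say. The comparison of levels asks how Ret-positive neurons of the ganglia that take in many pelvic afferents differ from those that mainly serve the hindlimb.

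Pruriceptors of the DRG detect itch-causing substances in the skin with receptors on their endings and pass the signal to the spinal cord with peptides. One class of them makes natriuretic polypeptide b (Nppb) and somatostatin (Sst), and Nppb acts on spinal neurons through the receptor Npr1. The same neurons carry the receptor of the T cell cytokine interleukin 31, which joins Il31ra to Osmr and signals through the kinase Jak1, and a receptor for cysteinyl leukotrienes, Cysltr2.

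Libraries held between 13030096 and 27011995 counts, and 3 counts correspond to 0.111 to 0.230 CPM. CPM, the usual unit of depth-scaled counts, was computed here from totals that were multiplied by a TMM factor, which corrects for composition. The members held 37 (Ptafr, male L6S1 E) to 19570 (Jak1, female L6S1 A) counts in a library. Male L6S1 D and E lay 4.84 and 7.38 SDs of the other 11 libraries away on the first principal component, and the members' tests that they enter are given with and without them. Ret stood between 181 and 221 CPM in 11 libraries, at 154 CPM in male L6S1 D and at 87.2 CPM in male L6S1 E. All 10 pan-neuronal markers were detected, with a summed level of 13780 to 22589 CPM over the libraries. In such bulk samples fewer cells of a type and less RNA per cell cannot be told apart.

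Across the 2 spinal levels no member passed the test over all genes. Averaged over the sexes 0 of 8 members were called, against 69 of 15406 genes (0.448%), by the quasi-likelihood test of edgeR at an adjusted p under 0.05, and 2 members had an unadjusted p under that value. In females 0 of 8 were called (0.0195% of all genes) with 2 under 0.05 unadjusted, and in males 0 of 8 (0.221%) with 1. DESeq2 and limma voom also called 0 of 8 in each of these comparisons. The median log2 fold change of the 8, L6S1 over L345, was 0.62 in females (0.00 over all genes) and 0.11 in males (0.04), and 0.27 for the average of both sexes (0.02). The receptors and the kinase lay higher at L6S1 in females, while in males the peptides lay higher and Osmr lower, and that second pattern shrank or turned without male L6S1 D and E. With libraries of the same letter put in 1 block, across the sexes or within each sex, the level effect of Il31ra was 0.70 or 0.84 on the log2 scale. Male L6S1 then rests on library A, and these fits are described below.

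Motifs were searched in the 250 bases before the RefSeq start site of each member (GRCm38.p6), and the 4 matches found are shown. Whether they relate to the members' levels was not tested. Each line gives 30 bases around the match, 5′ to 3′ on the strand of the gene, with the match in capitals.
Nppb: actcagccccagTATAAAaggcagaggcac
Sst: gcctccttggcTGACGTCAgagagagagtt
Jak1: ggagcagcttcTGACGTCAcgggggctggg
Il31ra: cctgaagggtTTCCAGGAAattgtgataat
These lie at chr4:147985857-147985886 (plus strand), chr16:23890874-23890903 (minus), chr4:101265306-101265335 (minus) and chr13:112580834-112580863 (minus). The cAMP response element, TGACGTCA, which reads the same on both strands, was found in Sst and Jak1, and in 1.55% of 32851 promoters of the same length. A TATA box core, TATAAA on the gene's strand, was found in Nppb alone of the 8 and in 7.59% of promoters. A STAT core, TTCNNNGAA on either strand, was found in Il31ra alone and in 7.02% of promoters. The RUNX core TGTGGT, on either strand, was in none of the 8 and in 14.0% of promoters. No 2 matches overlapped. GENCODE M21 starts its models of Nppb and Sst further upstream than RefSeq, so that these 2 matches lie in an exon of their own gene there, while those of Il31ra and Jak1 lie in no exon.

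Among the peptides, Nppb (ENSMUSG00000029019, chromosome 4, 147985788 to 147987205 on GRCm38), which carries the itch signal to the spinal cord, had levels that overlapped between L345 and L6S1 in both sexes. It stood at 74.6, 33.1 and 53.0 CPM in female L345 A, B and C and at 63.4, 65.6 and 72.6 CPM in female L6S1 A, B and C. In males it stood at 17.4, 38.3 and 65.4 CPM in L345 A, B and C and at 58.2, 170, 100.5 and 44.3 CPM in L6S1 A, D, E and F. The L6S1 females were closely spaced, and male L6S1 D and E were the 2 highest of all libraries. The log2 fold change was 0.33 (SE 0.49) in females, 1.21 (SE 0.47, adjusted p = 0.155) in males and 0.77 (SE 0.34, adjusted p = 0.574) averaged over the sexes. Without male L6S1 D and E it was 0.33 in males (adjusted p = 0.763) and 0.33 on average (adjusted p = 0.798).

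Sst (ENSMUSG00000004366, chromosome 16, 23889581 to 23890844), the precursor of an inhibitory peptide, was at 41.8, 17.9 and 34.1 CPM in female L345 A, B and C and at 31.0, 22.4 and 25.7 CPM in female L6S1 A, B and C. It was at 10.4, 20.5 and 24.8 CPM in male L345 A, B and C and at 17.1, 65.5, 19.9 and 17.8 CPM in male L6S1 A, D, E and F. The levels overlapped in both sexes, and male L6S1 D alone lay above every other library. The log2 fold change was -0.24 (SE 0.49) in females and 0.69 (SE 0.47, adjusted p = 0.343) in males, where it was -0.10 without D and E.

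Nts (ENSMUSG00000019890, chromosome 10, 102481760 to 102490418) encodes neurotensin. It stood at 72.2, 37.7 and 66.2 CPM in female L345 A, B and C and at 58.4, 49.4 and 68.9 CPM in female L6S1 A, B and C. In males it stood at 43.8, 50.6 and 70.3 CPM in L345 A, B and C and at 62.8, 123, 99.9 and 30.5 CPM in L6S1 A, D, E and F. The male L6S1 libraries held both the 2 highest values and the lowest one of the 13. Its fold change in females was 1.00 (L6S1 over L345), and its log2 fold change was 0.53 (SE 0.39, adjusted p = 0.390) in males and -0.24 there without D and E.

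**Figure D1:**
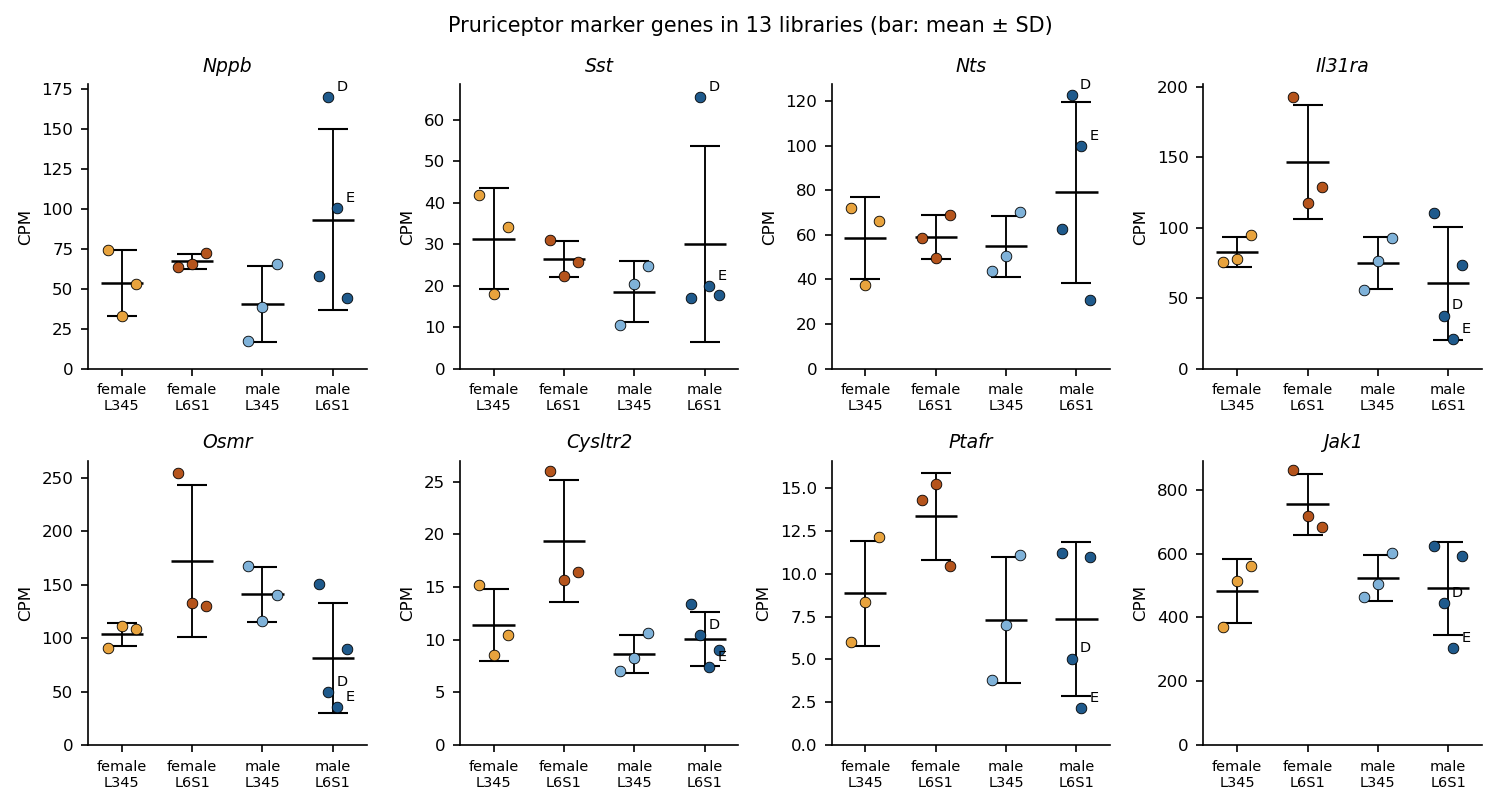
Level of each member in CPM (vertical axis, from 0) in the 4 groups (horizontal axis). Points are libraries, horizontal bars with whiskers are the mean and SD of a group, and male L6S1 D and E are lettered; Il31ra, Osmr, Cysltr2 and Jak1 are higher in every female L6S1 library than in every female L345 library, and in males no member separates the levels.

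Of the receptors, Il31ra (ENSMUSG00000050377, chromosome 13, 112522810 to 112580662), the ligand-specific chain of the interleukin 31 receptor, stood at 75.5, 77.6 and 94.7 CPM in female L345 A, B and C. In female L6S1 A, B and C it stood at 193, 117 and 129 CPM, above all 3. In males the levels overlapped, with 55.9, 76.5 and 92.9 CPM in L345 A, B and C and 110, 37.5, 20.6 and 73.4 CPM in L6S1 A, D, E and F. The log2 fold change was 0.83 (SE 0.45) in females, with an adjusted p of 1, and -0.31 (SE 0.42, adjusted p = 0.651) in males. Male L6S1 D and E were the 2 lowest of the 13 libraries, and without them the male value was 0.28.

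Osmr (ENSMUSG00000022146, chromosome 15, 6813577 to 6874969), the other chain of that receptor, also binds oncostatin M in a pair with Il6st. It was at 91.0, 111 and 109 CPM in female L345 A, B and C and at 254, 133 and 130 CPM in female L6S1 A, B and C. In males it was at 167, 116 and 140 CPM in L345 A, B and C and at 150, 49.1, 35.5 and 89.4 CPM in L6S1 A, D, E and F. All 3 female L6S1 libraries lay above the female L345 libraries, A by far the most, and 3 of the 4 male L6S1 libraries lay below all male L345 libraries. The log2 fold change was 0.74 (SE 0.43) in females and -0.80 (SE 0.40, adjusted p = 0.218) in males, and -0.24 in males without D and E. Without male L6S1 A, the 1 library of that group inside the L345 range, it was -1.28 and Osmr alone of the 8 was called (adjusted p = 0.0242), in a fit that called 20.5% of all genes.

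Cysltr2 (ENSMUSG00000033470, chromosome 14, 73029128 to 73049114), a receptor of cysteinyl leukotrienes, stood at 15.2, 8.56 and 10.4 CPM in female L345 A, B and C and at 26.01, 15.7 and 16.4 CPM in female L6S1 A, B and C. In males it stood at 7.07, 8.24 and 10.7 CPM in L345 A, B and C and at 13.4, 10.5, 7.43 and 9.04 CPM in L6S1 A, D, E and F. Female L6S1 lay above female L345 in every library, by a narrow gap, and the male levels overlapped. The log2 fold change was 0.77 (SE 0.32) in females, 0.22 (SE 0.30, adjusted p = 0.658) in males and 0.49 (SE 0.22, adjusted p = 0.577) averaged over the sexes. The average stayed between 0.36 and 0.80 over its 22 alternatives, and without male L6S1 D and E it was 0.56 (0.36 in males).

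Ptafr (ENSMUSG00000056529, chromosome 4, 132564067 to 132582683), the receptor of the lipid mediator platelet-activating factor, had the lowest level per kilobase of the 8. It was at 6.05, 8.36 and 12.2 CPM in female L345 A, B and C and at 14.3, 15.3 and 10.5 CPM in female L6S1 A, B and C. In males it was at 3.79, 7.03 and 11.1 CPM in L345 A, B and C and at 11.2, 5.04, 2.16 and 11.01 CPM in L6S1 A, D, E and F. The levels overlapped in both sexes. The log2 fold change was 0.59 (SE 0.50) in females and 0.01 (SE 0.48, adjusted p = 0.992) in males, where it was 0.59 without D and E.

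Jak1 (ENSMUSG00000028530, chromosome 4, 101152367 to 101265282), a kinase that many cytokine receptors share and that many cell types express, had the most counts of the 8. It stood at 369, 515 and 562 CPM in female L345 A, B and C and at 863, 719 and 683 CPM in female L6S1 A, B and C, with no overlap. In males it stood at 465, 504 and 603 CPM in L345 A, B and C and at 623, 445, 304 and 592 CPM in L6S1 A, D, E and F, with overlap. The log2 fold change was 0.65 (SE 0.29) in females and -0.09 (SE 0.27, adjusted p = 0.847) in males, where it was 0.21 without D and E.

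In females Il31ra, Osmr, Cysltr2 and Jak1, 4 of 8 members, were thus higher in every L6S1 library than in every L345 library, which held for 4.89% of all genes tested, and 0 of 8 were lower in every one (3.86% of genes). In males 0 of 8 were higher in every L6S1 library (9.21%) and 0 of 8 lower in every one (9.49%). None of the 4 female differences was called by the test, each with an adjusted p of 1. The summed fibroblast markers were also higher at L6S1 in each female pair. They stood at 442, 205 and 198 CPM in L6S1 A to C and at 235, 118 and 116 CPM in L345 A to C. Most of these sums was decorin (Dcn, named after its value was seen), at 177 to 427 CPM in female L6S1 and 90.2 to 209 CPM in female L345. The median log2 fold change of the 7 fibroblast markers tested was -0.36 in females. The part of fibroblast markers in the female differences was not tested.

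**Figure D2:**
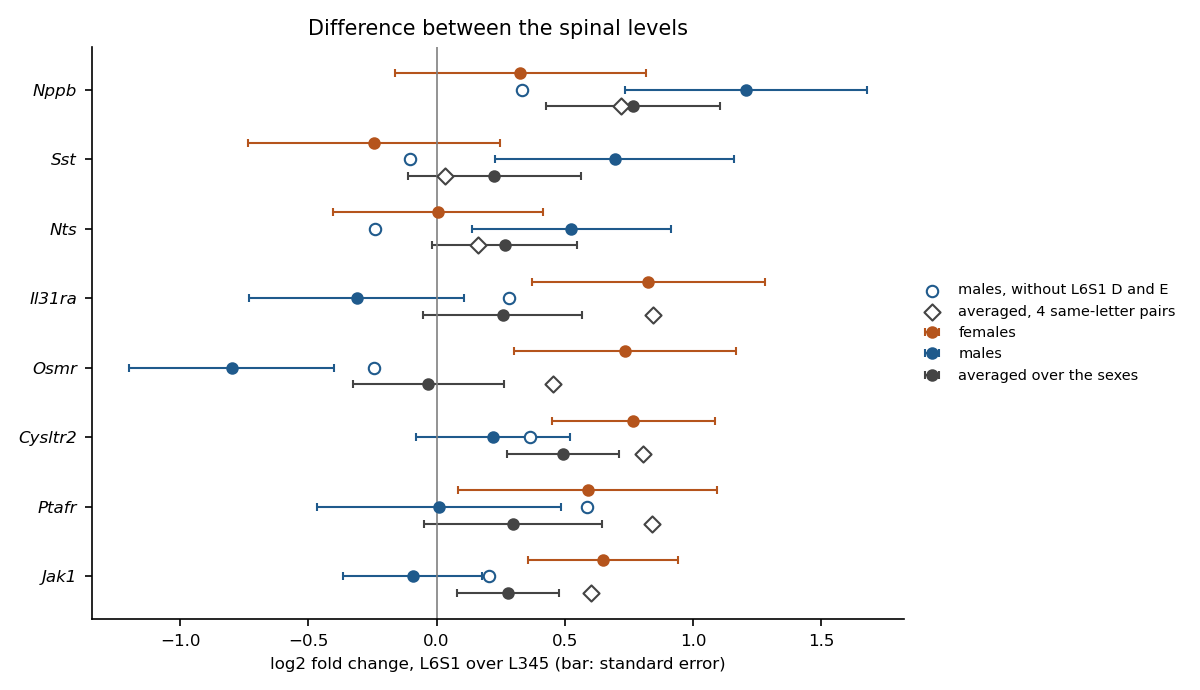
Log2 fold change of L6S1 over L345 (horizontal axis) for each member, with its standard error, in females, in males and averaged over the sexes. Open circles are the male value without L6S1 D and E and open diamonds the value over 4 same-letter pairs; the filled male points of Sst, Nts, Il31ra and Jak1 lie on the other side of 0 from their open circles.

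Libraries of 1 sex that share a letter had deviations from their group means that correlated at 0.101 to 0.520, which does not establish a pairing. The members were compared within these 4 pairs. Il31ra was 2.56, 1.51 and 1.36 times as high at L6S1 as at L345 in female pairs A, B and C and 1.98 times in male pair A. For Cysltr2 the 4 ratios were 1.71, 1.83, 1.57 and 1.90, the narrowest range of the 8 members. Jak1 had ratios of 2.34, 1.398, 1.22 and 1.34. These 3 members were higher at L6S1 in 4 of 4 pairs, as were 9.57% of all genes tested, whereas Nppb, Osmr, Nts and Ptafr were higher in 3 of 4 and Sst in 2 of 4. The exception was female pair A for Nppb (0.850) and Nts (0.809), female pair C for Ptafr (0.860) and male pair A for Osmr (0.897).

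With the letter as a block, the level effect averaged over the sexes was 0.70 on the log2 scale for Il31ra (adjusted p = 0.0483 by edgeR), so that 1 of 8 members was called, against 5.43% of all genes. With a block for each letter within each sex, 1 level effect was fitted to the 4 pairs, of which 3 are female, so that it weighs females more than the average over the sexes does. It was 0.84 for Il31ra (adjusted p = 0.0312), again 1 of 8, against 0.584% of all genes. Cysltr2 came next in the latter fit, at 0.80 (adjusted p = 0.0542), while Jak1 was at 0.51 (adjusted p = 0.0548) in the former and Ptafr at 0.86 (adjusted p = 0.0805). The block by letter alone joins libraries of both sexes, and only the other block keeps the sexes apart. These fits left 4 and 3 residual degrees of freedom against 9 without a block. In both of them male L6S1 D, E and F, which have no partner of their letter, give no value. The male L6S1 group then rests on library A. With the block within each sex, male L345 B and C have no partner either, so that males give only pair A. Without the block the adjusted p of Il31ra was 0.778 (0.416 without male L6S1 D and E), and over its 22 alternatives it ran from 0.0312 to 0.966.

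**Figure D3:**
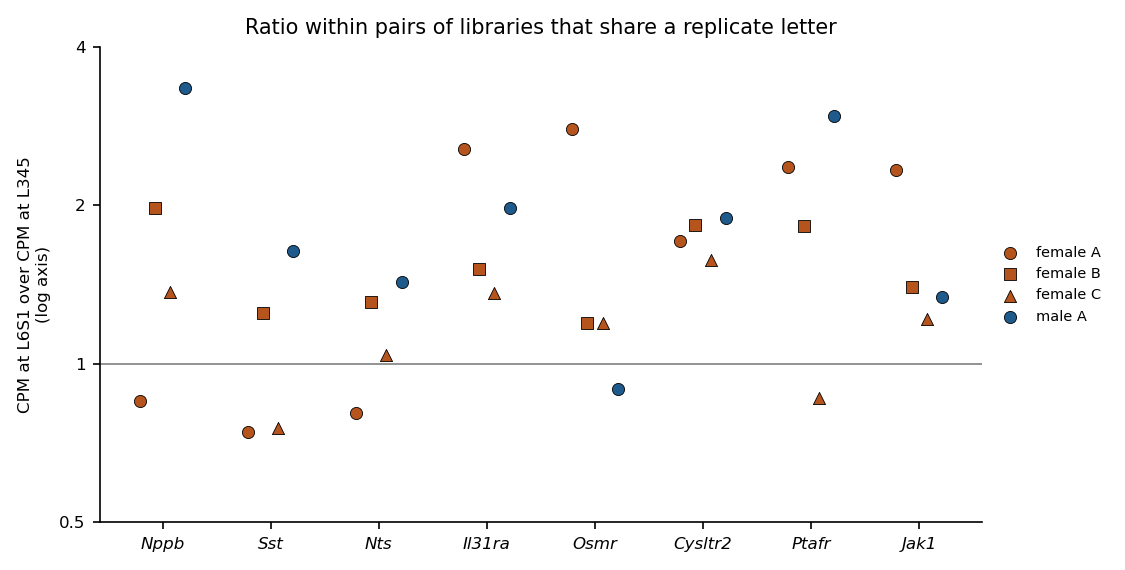
CPM at L6S1 over CPM at L345 (vertical axis, log scale) for each member in the 4 pairs of libraries with the same letter, 3 of females (orange) and 1 of males (blue). All 4 points of Il31ra, Cysltr2 and Jak1 lie above 1, and those of Cysltr2 lie within 1.57 to 1.90.

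In male L6S1 D and E most members with short exon length lay higher than in the other libraries and the longer ones lower, though not in order of length. On the log2 scale Nppb, Sst and Nts, with 599 to 1176 bases of exon in the files, lay 1.78, 1.54 and 1.19 above the mean of the other 11 libraries in D, and 1.02, -0.17 and 0.90 from it in E. Cysltr2, with 1802 bases, lay at -0.19 and -0.68. The longer Ptafr, Il31ra, Jak1 and Osmr, with 3637 to 12113 bases, lay at -0.89, -1.33, -0.37 and -1.40 in D and at -2.07, -2.19, -0.92 and -1.87 in E.

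A trend with exon length ran through all genes. In D and E the median gene with under 1000 bases of exon lay 1.09 and 1.10 above the other libraries (1115 genes), and the median gene with 8000 or more lay at -0.57 and -0.88 (1726 genes). Between these, genes from 2000 to under 4000 bases were at 0.03 and 0.20 (5147 genes), so that Il31ra and Ptafr, which belong to that class, lay further down than its median in both libraries. Genes from 1000 to under 2000 bases were at 0.66 and 1.02 (2452 genes), and of that class Nts lay above 0 and Cysltr2 below it in both libraries. Genes from 4000 to under 8000 bases, the class of Jak1, were at -0.37 and -0.55 (4966 genes). Sst lay below the median of its class in E and above it in D. Of the non-neuronal marker sums, those of glia, fibroblasts and immune cells were highest in E, and in D only the immune sum stood clearly apart. The summed level of 11 satellite glia and Schwann cell markers was 5914 CPM in male L6S1 E against 842 to 1893 CPM in the other 12 libraries. That of 9 fibroblast markers was 589 CPM in E, 277 CPM in D and 84.5 to 442 CPM in the other 11. Most of the fibroblast sum in E was decorin (Dcn, 570 CPM, named after its value was seen). Of 16 immune markers the sum was 18.3 and 15.6 CPM in E and D and at most 11.03 CPM elsewhere, and that of 10 endothelial and mural markers was 260 and 280 CPM in a range of 194 to 519 CPM. Much of that last sum in E was Rgs5, at 133 CPM. Its genes went different ways (named after their values were seen). In E Emcn (40.9 CPM), Egfl7 (53.4 CPM), Cldn5 (10.4 CPM) and Flt1 (8.60 CPM) were each at their highest of all libraries. Tek (1.23 CPM) and Pdgfrb (2.40 CPM) were at their lowest there, and Pecam1, Cdh5 and Kdr at neither end. In D Cdh5 was at its highest (4.10 CPM). No marker of these lists was at 0 in every library. The part of length or of other cells in the members' values was not tested.

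**Figure D4:**
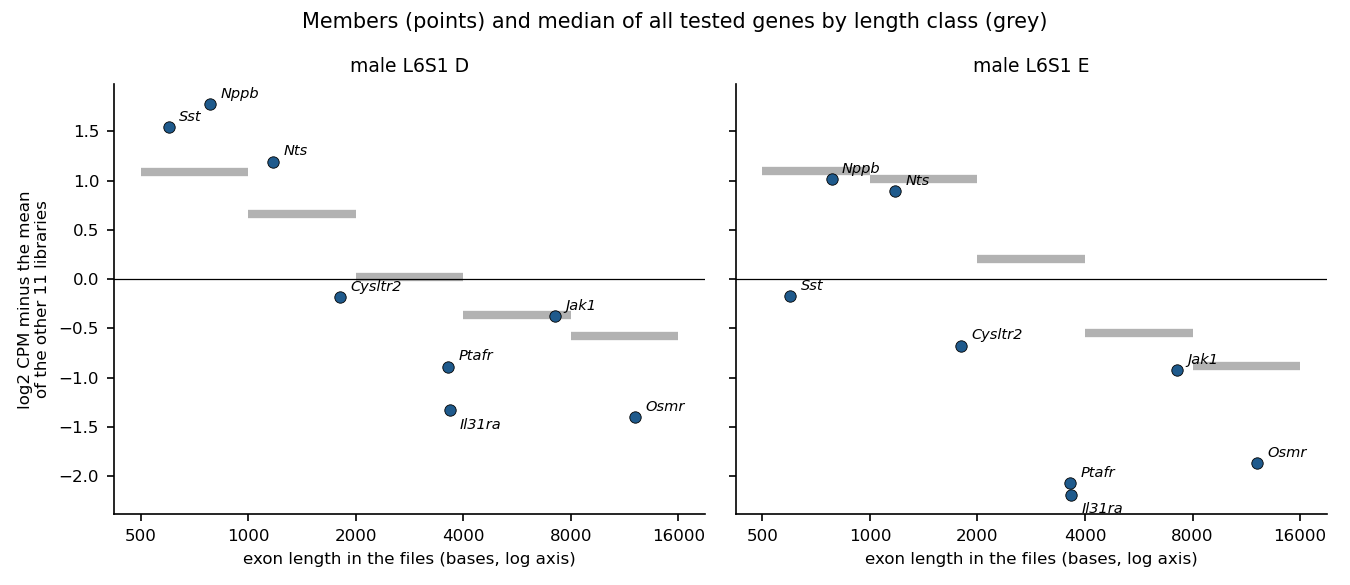
Log2 CPM in male L6S1 D (left) and E (right) minus the mean of the other 11 libraries (vertical axis) against exon length in the files (horizontal axis, log scale). Points are the members and grey bars the median of all tested genes in 5 length classes, the outermost of which have no outer bound; Nppb and Nts lie above 0 and Il31ra, Osmr, Ptafr and Jak1 below it in both libraries.

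The effect of level was also compared between the sexes. No member was called for this difference, like 0 of 15406 genes (0%; 1805 genes had an unadjusted p under 0.05), and 1 member, Osmr, had an unadjusted p under 0.05. For Osmr the male effect minus the female effect was -1.53 on the log2 scale (SE 0.59, adjusted p = 0.409). It was -1.14 (SE 0.62) for Il31ra and -0.74 (SE 0.40) for Jak1, and 0.88 (SE 0.67) for Nppb and 0.94 (SE 0.68) for Sst. Without male L6S1 D and E these differences were -0.97 for Osmr, -0.54 for Il31ra, -0.44 for Jak1, 0.0058 for Nppb and 0.14 for Sst. The difference of Osmr lay between -2.02 and -0.82 over 21 alternatives and kept its sign in each. With all libraries the receptors and the kinase had negative differences and the peptides positive ones. Without D and E that split did not hold, as Nts was at -0.24 and Ptafr at 0.0005. Nor did it hold with the replicate block, where male L6S1 rests on library A. There Sst was at -0.0015 and Ptafr at 0.35.

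Between males and females, averaged over the levels, 0 of 8 members were called, against 0.0779% of all genes, and 2 had an unadjusted p under 0.05. These were Il31ra, at -0.71 on the log2 scale (SE 0.31), and Cysltr2, at -0.67 (SE 0.22), males over females, both with an adjusted p of 0.665. Without male L6S1 D and E Il31ra was at -0.41, Cysltr2 at -0.60 and Sst at -0.68, and with the replicate block they were at -0.27, -0.55 and -0.69. Cysltr2 stayed at -0.76 to -0.53 over 21 alternatives. The processing notes name other tools and builds for the female than for the male libraries, so sex and processing cannot be told apart. Within the males, E and F were deposited apart from the rest, and without them the male level effect of the members ran from -0.50 for Osmr to 1.51 for Nppb, with 0 of 8 called.

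Per kilobase of exon, the members spanned from 84.4 CPM (Nppb, mean over 13 libraries) to 2.50 CPM (Ptafr). Between them came Jak1 at 77.1, Nts at 54.5, Sst at 44.8, Il31ra at 24.2, Osmr at 10.0 and Cysltr2 at 6.77 CPM per kilobase. The ranges over libraries of each pair of neighbours in this order overlapped, from Nppb and Jak1 (22.3 to 218 and 42.1 to 119) to Cysltr2 and Ptafr (3.92 to 14.4 and 0.595 to 4.20). Within single libraries 2 of the 7 steps of this order held in 13 of 13, Il31ra above Osmr (Osmr over Il31ra 0.304 to 0.906) and Cysltr2 above Ptafr (ratio 1.66 to 6.93). The other steps turned in some libraries: Nppb exceeded Jak1 in 4 of 13, Jak1 exceeded Nts in 10, Nts exceeded Sst in 8, Sst exceeded Il31ra in 11 and Osmr exceeded Cysltr2 in 10. Of the peptides, Nppb exceeded Sst in 13 of 13 (ratio 1.19 to 3.86), and Nppb over Nts ran from 0.598 to 2.18.

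Partner chains of the receptors were also set against each other as ratios within a library. Il6st, the signalling subunit that Osmr joins for oncostatin M, stood at 0.707 to 0.995 of Il31ra per kilobase in female L345 and at 0.384 to 0.538 in female L6S1. In males this ratio was 0.931 to 1.36 in L345 and 0.470 to 0.920 in L6S1, so that the levels did not overlap within either sex. Lifr, which pairs with Il6st for leukemia inhibitory factor, stood at 12.8 to 18.8 times Osmr in the 6 L345 libraries and at 5.10 to 12.1 times Osmr in the 7 L6S1 libraries. Male L6S1 D and E had the 2 lowest ratios of Lifr to Osmr (5.61 and 5.10), and the other 5 L6S1 libraries were at 9.72 to 12.1. Of the 8 ratios formed, these 2 separated the levels within both sexes, which was read from their ranges after the values were seen and not tested. Of all other tested genes 0.643% had a ratio to Il31ra, and 0.104% a ratio to Osmr, that was lower in every L6S1 library within each sex. The ligands themselves were near absent from the libraries, with 2 counts of Il31 and 5 of Osm over all 13.

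**Figure D5:**
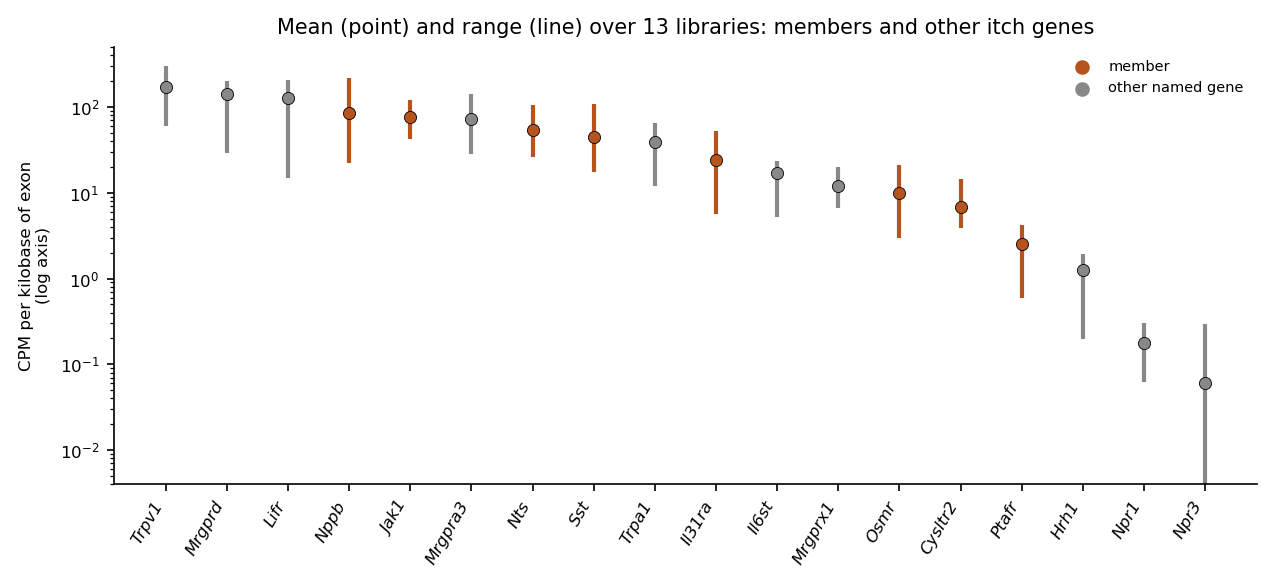
Level per kilobase of exon (vertical axis, log scale) of the members (orange) and of other named itch and receptor genes (grey). Points are means and lines the range over 13 libraries, with that of Npr3 cut at the axis since some libraries hold 0 counts; the members lie between 84.4 (Nppb) and 2.50 (Ptafr), and Npr1 and Npr3 lie lowest.

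Each member was also set against all other tested genes by the root-mean-square difference of log2 CPM over the 13 libraries, with each gene centred on its mean. Nppb was nearest to Lrrc75a (0.295), mt-Tc and Gstt2, Sst to Tgm2 (0.395), Lrrc75a and Fmo2, and Nts to Ulk4 (0.239), Eef1e1 and Gtf2b. Il31ra was nearest to Etl4 (0.235), Ide and Npy2r, Osmr to Zfp9 (0.116), Elmod2 and Ints2, Cysltr2 to the serotonin receptor Htr1f (0.199), Trpm6 and Lyn. Ptafr was nearest to Clstn3 (0.314), Hrh2 and Pde4c, and Jak1 to Abcc5 (0.180) and, among others, Kalrn. A gene's own root-mean-square spread is what a flat profile would give, and it was 0.388 for Jak1 to 0.784 for Il31ra.

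Among the members, Nts was the 36th and Sst the 37th nearest of 15405 genes to Nppb (0.458 each). Seen from Nts, however, Nppb was the 1665th and Sst the 2210th nearest (0.458 and 0.484), little below the 0.521 that a flat profile gives. Il31ra was the 6th nearest to Ptafr (0.345), and Osmr the 43rd nearest to Il31ra (0.374). Nppb and Osmr were the furthest pair (1.29). The order was another one without male L6S1 D and E. Over the other 11 libraries Cysltr2 and Il31ra were each other's 5th nearest gene (0.235), Jak1 was the 10th nearest to Il31ra (0.262), Sst the 10th nearest to Nppb (0.359), and the distance of Nppb to Il31ra was 0.446, against 1.21 over all 13. In these 11 libraries the neuropeptide Y receptor Npy2r was the gene nearest to Il31ra (0.134) and to Cysltr2 (0.163), with Htr1f next for Cysltr2 (0.173). Il31ra was the 2708th nearest to its partner Osmr there (0.395, against 0.407 for a flat profile) and the 939th over all 13 (0.374, against 0.705). The libraries share depth and composition, and a short distance is a description of these pools.

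Other itch receptors and transducers, a list of 35 genes of which 26 were tested, had 0 called members in each of the 5 comparisons. Their median log2 fold change was 0.15 in females, -0.16 in males and -0.07 on average. Trpv1, the heat and capsaicin channel of many itch pathways, stood at 558 ± 24.0 CPM in the 3 female L345 libraries and at 866 ± 143 CPM in the 3 of female L6S1 (mean ± SD). These did not overlap, and 4.89% of all genes tested were likewise higher in every female L6S1 library. The log2 fold change of Trpv1 in females was 0.64 (SE 0.41), with an adjusted p of 1. The irritant channel Trpa1 was at 168 ± 23.6 CPM and 211 ± 58.4 CPM there (0.33, SE 0.41), and the histamine receptor Hrh1 at 5.91 ± 2.82 CPM and 5.44 ± 2.26 CPM (-0.13, SE 0.58).

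Receptors that mark other itch neurons had means within 1 SD of each other at both levels in females. Mrgpra3, the chloroquine receptor, whose close paralogs may share its reads, was at 78.8 ± 36.6 CPM in female L345 and 85.3 ± 37.6 CPM in female L6S1 (n = 3 each). Mrgprx1 was at 15.9 ± 7.38 CPM and 12.6 ± 3.32 CPM, and the beta-alanine receptor Mrgprd at 459 ± 140 CPM and 426 ± 120 CPM. Their log2 fold changes in females were 0.11 (SE 0.43), -0.33 (SE 0.34) and -0.11 (SE 0.48), each with an adjusted p of 1, and whether they differ from those of the members was not tested. In males Mrgprx1 stood at 17.0 to 19.7 CPM in L345 and at 7.84 to 12.5 CPM in L6S1, with no overlap. Of all genes tested 9.49% were likewise lower in every male L6S1 library than in every male L345 library. The male log2 fold change of Mrgprx1 was -0.82 (SE 0.32, with an adjusted p of 0.152 by edgeR), and those of Mrgprd and Mrgpra3 were -0.74 (SE 0.45) and 0.31 (SE 0.41). Mrgprd was at 499 and 523 CPM in male L6S1 A and F, inside the male L345 range of 476 to 620 CPM. In D and E it was at 240 and 90.0 CPM. Mrgpra3 was at 181 CPM in male L6S1 E and at 82.0 to 105 CPM in A, D and F.

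Of 21 cytokine receptor partners and JAK-STAT genes, 17 were tested and 0 were called in any comparison, with a median of -0.06 averaged over the sexes. Il6st was at 209 ± 40.7 CPM in female L345 and 199 ± 21.8 CPM in female L6S1, and at 241 ± 18.1 CPM (n = 3) and 122 ± 52.2 CPM (n = 4) in the males. Lifr was at 1437 ± 402 CPM and 1529 ± 548 CPM in females and at 1832 ± 194 CPM and 659 ± 587 CPM in males, where libraries A and F held 1413 and 836 CPM and D and E only 235 and 154 CPM. The male log2 fold changes were -0.98 for Il6st (SE 0.31, adjusted p = 0.137) and -1.47 for Lifr (SE 0.55, adjusted p = 0.147), and they were -0.56 and -0.71 without D and E. Il6st was called lower there by DESeq2 (adjusted p = 0.0474), and without male L6S1 A edgeR called both Il6st (-1.12, adjusted p = 0.0296) and Lifr (-2.17, adjusted p = 0.0157). Of 15 leukotriene and platelet-activating factor genes, 12 were tested and 0 called, with a median of 0.01.

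Of 21 genes of the natriuretic, somatostatin and neurotensin systems 15 were tested, with a median of 0.18 averaged over the sexes, against 0.02 over all genes. Pcsk1, the prohormone convertase that cuts peptide precursors, rose at L6S1 averaged over the sexes (log2 fold change 0.99, SE 0.20, adjusted p = 0.0408), the only gene of the list called there. That call held in 9 of 22 alternatives, also without male L6S1 D and E (adjusted p = 0.0123), and was lost without any one of the 3 female L345, 3 female L6S1 or 3 male L345 libraries or male L6S1 F (adjusted p up to 0.178). It stood at 25.2 ± 2.63 CPM in female L345, 62.1 ± 19.1 CPM in female L6S1, 25.6 ± 3.71 CPM in male L345 and 40.7 ± 10.1 CPM in male L6S1. Npr3, the clearance receptor of natriuretic peptides, was called lower in males averaged over the levels (adjusted p = 0.00783), with 1 and 4 counts over the L345 and L6S1 males and 13 and 97 counts over the L345 and L6S1 females. Without male L6S1 D and E, which hold 2 of the counts, the adjusted p was 0.0925. Most of the 115 counts of Npr3 came from female L6S1, and here too sex and processing cannot be told apart. Npr1, the signalling receptor of the family, was low, with 4 to 31 counts in a library.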

How the data were processed

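RNA of sorted cells was sequenced in 13 pools. Per the submitters' processing notes, STAR 2.0.4b, Subread, featureCounts 1.4.5, Salmon, GRCm38.p2 and mm10 are named for the female libraries and Subread, featureCounts 1.4.5 and GRCm38.p2 for the male ones, with no role or order. Treatment of strand and of reads that match several genes is not given in the sources used here. Every test started from the deposited counts, which are unnormalized whole numbers. The deposited CPM equals the count over the library's total (largest relative difference 5.1e-15), and the RPKM the authors give is this CPM divided by the file's gene length in kilobases (5.21e-14). Both columns served as a check only.

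Identifiers were matched to symbols of GENCODE M21 (40254 of 41388), and the 8 members were found by symbol. Of their exon bases, Il31ra shares 0.793% with Gm3226 on the same strand and Jak1 shares 0.0553% with Raver2 on the opposite strand. Counts were filtered with filterByExpr, scaled with TMM (factor 0.925 in male L6S1 D, 0.796 in E, 1.01 to 1.05 in the others) and compared by edgeR 4.0.16 (quasi-likelihood F-test, robust) in R 4.3.3, with 1 mean per group over 13 libraries and Benjamini-Hochberg adjustment over 15406 genes. Calls needed an adjusted p under 0.05. Each SE was taken as the size of the log2 fold change divided by the root of F. Floors of 3 counts cover counting error only, since the reads carry no molecular identifiers, and p-values measure the spread between pools.

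The members and lists were chosen with earlier results of these data known. Named are all members, Ret, Il6st, Lifr, Npr1, Npr3, Hrh1, Trpv1, Trpa1, Mrgpra3, Mrgprx1 and Mrgprd, called members of the other lists (at most 4 per comparison and direction), and the 3 genes most like each member, without predicted genes and immune receptor segments; 1 of these is not reported here. Hits over the 11 libraries follow the same measure and were added after the data were seen, as were the same-letter ratios, the ratios between genes and the block within each sex.

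Same-letter libraries of a sex deviated together in 4 of 4 pairs, so that letters were used as a block. The correlation of deviations from the group means across genes was 0.520, 0.203 and 0.488 in females A, B and C and 0.101 in males A. The replicate block put all libraries of 1 letter together, of both sexes. Only the block within each sex and the same-letter ratios kept the sexes apart. Across the sexes the same-letter values ran from -0.106 to 0.518, about as high as within a sex, and the labels do not say what a letter stands for. Values for libraries with different letters are not given here, so the pairing is an assumption. Alternatives were DESeq2 1.42.0, limma voom 3.58.1, no filter, no TMM, TMMwsp, the replicate block, each library left out, male L6S1 D and E or E and F left out, and each sex alone. The test was also checked on simulated counts.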

Additional observations from a re-analysis of the deposited data

Results flagged for a closer look

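In the 4 male L6S1 libraries Sst of library D, at 65.5 CPM, lay far above the other 3, with a gap to the next library of 0.941 of the whole range. It is the only value of the members, of Pcsk1 and of the genes always named that stood apart in this way in that group, the 1 group with enough libraries to be examined. Chance marks about 1 group in 20, and this group was examined once for each of these genes, so that 1 such mark can arise by chance. Length-related shifts in library D are given above beside the members' values, and their part in this value was not tested.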

How the results depend on the processing

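None of the 8 members was called in 106 of 109 alternatives of the 5 comparisons. The exceptions were Il31ra, higher averaged over the sexes with the replicate block and with the block within each sex (1 member each), and Osmr, lower in males without male L6S1 A (leaving out single libraries gave 0 to 1 members called there and 0 in the other comparisons). Over all genes the counts moved more. Averaged over the sexes, where 69 genes were called, DESeq2 called 187, the fit without a filter 144, the replicate block 837, and the fit without male L6S1 E and F 37. In females (3 genes) the counts were 47 by DESeq2, 11 by limma voom, 34 without a filter, 96 with the replicate block, 56 with the block within each sex, 23 without D and E, 12 without E and F and 14 in females alone. In males (34 genes) they were 965 by DESeq2, 17 by limma voom, 264 without a filter, 719 with the block, 19 without D and E, 9 without E and F and 2 in males alone. For the difference between the sexes (0 genes) they were 1 without a filter and 31 with the block, and for males against females (12 genes) 24 by DESeq2, 19 without a filter, 369 with the block and 7 without D and E. Leaving out each library in turn gave 28 to 129 genes averaged over the sexes, 0 to 11 in females, 4 to 3133 in males, 0 for the difference between the sexes and 10 to 14 for males against females. The 129 and the 3133 came without male L6S1 A, the 11 without male L6S1 E, the 0 in females without female L345 B, the 28 without that library or without male L345 C, and the 4 without male L345 C. The cause of these changes was not tested. The block, with which male L6S1 rests on library A, changed no call of a member other than that of Il31ra. Of single members' log2 fold changes, those of Osmr averaged over the sexes (9 of 22 alternatives), Ptafr (8 of 22) and Jak1 (5 of 22) in males and Nppb between the sexes (7 of 21) took the other sign most often, none of them called. Pools limit the precision, with 3 or 4 in a group, and Ptafr rests on as few as 37 counts.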
